A study of Mus musculus with 2 samples.

Results

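Genomic is the class that TALON, the software named in the deposited annotation as the source of unannotated models, gives to a long-read transcript model that overlaps a gene but whose structure fits none of the spliced classes. Members were all Genomic models with at least 5 reads in a library. They numbered 1445 in replicate 1 and 829 in replicate 2, 2274 of 160963 deposited models in all. They were chosen by the deposited class and read count, so their number and abundance are descriptions. The samples were 2 libraries of total RNA from C2C12 cells, a mouse myoblast line that grew out of crushed thigh muscle of C3H mice and came from ATCC. Both belong to 1 group with no treatment or allele stated in the labels, are given there as biological replicates 1 and 2, and share 1 donor line. The labels state neither the differentiation state nor the sequencing platform, and nothing says that the cultures were separate.

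A mature mRNA ends with a 3' untranslated region (3' UTR), which in most genes lies within the last exon. Cleavage and polyadenylation set its end, usually shortly after a hexamer such as AATAAA, the polyadenylation signal. A read that covers a piece of a last exon holds no splice junction, so its structure alone cannot tell a fragment of a mature mRNA from unspliced RNA. Introns and intergenic sequence give such 1-exon reads too. The ISM class (incomplete splice match) holds models that match a contiguous piece of an annotated transcript, and it can also contain 1-exon models.

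Most members carried an end that the annotation already gives. The last 30 bases of 6 replicate 1 members with many reads show such ends, with AATAAA in capitals where it occurs. They were read from GENCODE M21 transcripts on mm10 and are written 5′ to 3′ on the strand of the model. The windows are chr5:142903115-142903144 (minus) for Actb, chr11:120345690-120345719 (minus) for Actg1, chr11:100956733-100956762 (minus) for Cavin1, chr6:51483675-51483704 (plus) for Cbx3, chr2:164424247-164424276 (minus) for Sdc4 and chr11:55394500-55394529 (minus) for Sparc. All 6 lie in the 3' UTR of the last exon.
Actb: taaaagtgcacaccttaccttacacaaaca
Actg1: gtaaagaAATAAAagtgctgcagtaactga
Cavin1: cggaccAATAAAcctgcttttctaaaagga
Cbx3: gtggtcAATAAAtagttttatattccttta
Sdc4: tAATAAAacctggtactttctagattgtca
Sparc: caaAATAAAaagtaacaacttagaaacggc
The hexamer stood in 5 of these 6 windows, and that of Actb held neither AATAAA nor ATTAAA. In replicate 2 the Sdc4 member (170 reads) ended 1048 bases beyond the annotated end, while those of the other 5 genes ended on it.

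A smaller set ended before the nearest annotated end, next to runs of A. The 10 bases before and the 20 bases after (in capitals) the model's end are shown for 4 such members of replicate 1. They are chr3:87915698-87915727 for Hdgf, chr13:49623621-49623650 for Ogn, chr19:46516311-46516340 for Trim8 and chr13:28950059-28950088 for Gm26735, all on the plus strand.
Hdgf: gaaaattaccAAAAAAGAAAAAAAAAACCC
Ogn: aaaaactttgTTAAAAAAAAAAAGTAAAAA
Trim8: ccaagaaaagCTGAGAAAAAAAAAAAAAAA
Gm26735: gtaacaacacTAGAAAAAAAAAAAAAACGA
Their 20 downstream bases held 16 A each. In replicate 1 these members had 37, 19, 17 and 14 reads, in the order shown. In replicate 2 all Genomic models of Hdgf, Ogn, Trim8 and Gm26735 held 1, 0, 0 and 8 reads. On 1-exon ISM models, Hdgf, Ogn and Trim8 had 0, 1 and 0 reads in replicate 1 and 20, 15 and 9 in replicate 2. Their low Genomic counts in replicate 2 are thus not a measure of 1-exon reads. Whether those ISM models ended at the same runs of A was not tested.

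The deposited tables gave raw read counts, 791850 reads in replicate 1 and 735077 in replicate 2. Genomic models of any count took 41886 reads in replicate 1, 5.29% (Wilson 95% interval 5.24 to 5.34), and 23633 in replicate 2, 3.215% (3.175 to 3.256). Members made up 3.91% of replicate 1 and 2.04% of replicate 2. The share was thus lower in replicate 2, and so were those of ISM models (10.4% and 8.29%) and Antisense models (2.03% and 1.43%), while Known models took 75.5% in replicate 1 and 79.3% in replicate 2. Intervals cover counting error only, since PCR copies are not independent molecules. The 9 myoblast markers examined had 2108 and 2283 reads in all, and the 15 markers of endothelial, blood, adipocyte, epithelial and neural cells had between 0 and 4 reads per cell type.

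Members had few reads each. The median was 8 reads in both libraries, and 241 members in replicate 1 and 195 in replicate 2 stood exactly at the minimum of 5. Another 434 and 302 Genomic models had 4 reads and lay just outside. The label places the models within annotated genes, and 1441 members of replicate 1 and 823 of replicate 2 were assigned to one. Some of the assigned members lay partly or mostly outside the gene, as given with their positions below. Of the other 4 in replicate 1, 3 lay in loci called intergenic and 1, with 9 reads, in a locus called antisense, which overlaps Gpsm1 on the opposite strand. The other 6 of replicate 2 were all in loci called intergenic. Protein-coding genes held 1413 and 803 members.

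Nearly all members had 1 exon, 1437 in replicate 1 (99.4%, interval 98.9 to 99.7) and 822 in replicate 2 (99.2%, 98.3 to 99.6). The 8 and 7 multi-exon members took 300 and 379 reads. The median member was 1038 bases long in replicate 1 and 1425 in replicate 2.

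Position was read from the exons of the gene that each model was assigned to. At least 90% of bases in the 3' UTR, or in the last exon of a gene without coding annotation, was by far the most frequent position. It held 1126 members of replicate 1 (77.9%, interval 75.7 to 79.99) and 613 of replicate 2 (73.9%, 70.9 to 76.8). Their 5' start lay in a last exon for 92.1% of members in annotated genes in replicate 1 and 90.04% in replicate 2. Other exonic positions, which include models that run past the end of the gene, held 162 and 96 members, or 11.2% and 11.6%.

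**Figure D1:**
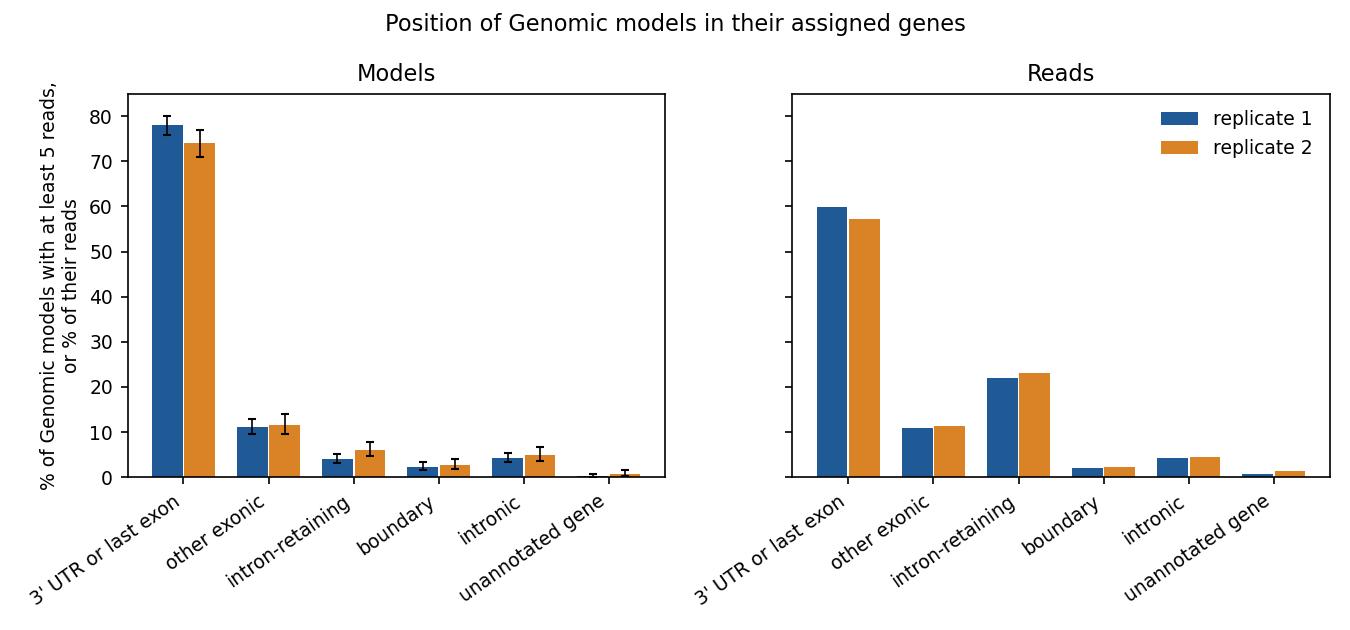
Share of members (left, with Wilson 95% intervals) and of their reads (right) in each position class, replicate 1 in blue and replicate 2 in orange. The 3' UTR or last exon holds 77.9% of members in replicate 1 and 73.9% in replicate 2, while the intron-retaining class holds 4.01% and 6.03% of members but 22.1% and 23.1% of reads because of Actb.

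Intron-retaining, boundary and intronic positions were less frequent. A model counted as intron-retaining when it contained a whole annotated intron with at least 10 bases on either side, as 58 members did in replicate 1 (4.01%) and 50 in replicate 2 (6.03%). Intronic models, with under 10% of their bases in exons of their gene, numbered 61 (4.22%) and 41 (4.95%). This class also takes in models that lie beyond the gene, since 12 and 7 of them had at least 10% of their bases outside it. Models across an exon-intron boundary numbered 34 and 23.

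Reads gave another picture than models for a single reason. Actb, the gene of beta-actin, counted as intron-retaining with 5822 of the 6835 reads of that class in replicate 1 and 2802 of 3476 in replicate 2. Its 540-base model (mm10 chromosome 5, 142903115 to 142903654, minus strand) lies wholly in the 3' UTR, and the intron it contains is a 180-base stretch that 1 annotated transcript removes and another keeps as exon. Counting only introns that no annotated exon contains left 38 and 30 intron-retaining members with 727 and 475 reads, and put 79.2% and 76.2% of member reads in the 3' UTR or last exon, in place of 59.96% and 57.1%.

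The deposited 3' ends sat on annotated transcript ends. Of members in annotated genes, 1128 of 1441 in replicate 1 (78.3%) and 638 of 823 in replicate 2 (77.5%) ended within 25 bases of one, and 1114 and 630 of these at a distance of 0. Ends 26 to 300 bases away were nearly missing, with 15 and 7 members, whereas 298 and 178 lay farther off. The same gap was present in other classes at the same minimum of 5 reads. In ISM models 2418 and 1567 ended at a distance of 0 and 25 and 20 at 26 to 300 bases, and in NIC models (new combinations of annotated splice sites) 638 and 662 against 0 and 3. The 5' start of 704 and 410 members fell exactly on an annotated exon edge. Deposited ends are thus not a record of where each read ended. How the ends were set is not given in the sources used here and was not tested.

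**Figure D2:**
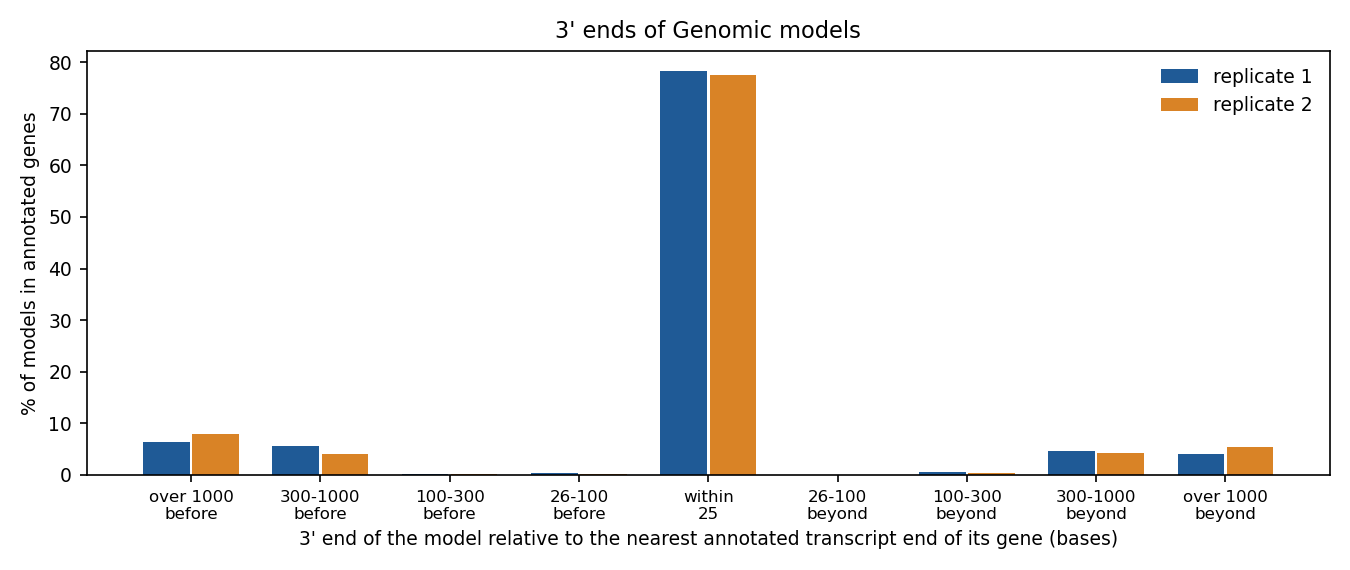
Share of members in annotated genes by the distance of their 3' end from the nearest annotated transcript end of the gene, replicate 1 in blue and replicate 2 in orange. The bin within 25 bases holds 78.3% in replicate 1 and 77.5% in replicate 2, and the bins from 26 to 300 bases on either side are nearly empty.

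Some deposited models were too short to describe a read. In all 56 members were under 50 bases long, and 32 were 1 base long. Of the 56, 55 were on the minus strand, which held 1334 of all 2274 members, and 42 of 43 in replicate 1 and 12 of 13 in replicate 2 ended at a distance of 0. Vat1 had a 1-base model with 68 reads in replicate 1 and 30 in replicate 2, at the same position of chromosome 11 (101458745). The lysosomal cholesterol carrier gene Npc2 had one with 64 reads, and the tropomyosin gene Tpm1 a 30-base model with 46 reads, both in replicate 1. Read counts of such models stand, but their extent cannot be read from the deposited coordinates.

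Members with ends of their own differed in position from those at annotated ends. Among members more than 25 bases from an annotated end, 143 of 313 in replicate 1 (45.7%) and 69 of 185 in replicate 2 (37.3%) lay in the 3' UTR or last exon, against 971 of 1114 (87.2%) and 537 of 630 (85.2%) of those at a distance of 0. This is a description, since the end enters both measures. Ends over 1000 bases beyond the nearest annotated end occurred in 59 and 45 members.

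Several genes with many reads ran well past the annotation. St13, which encodes a cochaperone of heat shock protein 70, had 224 reads in replicate 1 on a 3049-base model (chromosome 15, 81361990 to 81365038) that ended 1679 bases beyond the annotated end, while its 114 reads in replicate 2 were on a model that stopped at the annotated end. Pdpn, the gene of the surface glycoprotein podoplanin, had 175 reads in replicate 1 ending 1089 bases beyond and 71 in replicate 2 ending 364 bases beyond. Spry2, which dampens growth factor receptor signals, ended 620 bases beyond with 212 reads in replicate 1 and 672 bases beyond with 56 reads in replicate 2. Of these 3, Pdpn and Spry2 thus ran past the annotation in both libraries, to different ends. Pdpn was named after its values were seen.

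Sequence could be read only where an annotated exon covered the window. AATAAA or ATTAAA occurred in the last 50 bases of 947 of 1086 members at an annotated end in replicate 1 (87.2%, interval 85.1 to 89.1) and 541 of 624 in replicate 2 (86.7%, 83.8 to 89.1). Because those ends coincide with annotated ones, this describes the annotated ends of these genes. Known models with at least 5 reads had 73.8% and 74.4% by the same search. Members that ended elsewhere had a hexamer in 96 of 200 (48.0%) and 48 of 100 (48.0%). Of all 50-base windows in the exons used for the runs of A below, 5.37% held one. Those are not the same set of exons as in the hexamer counts, so the share is not a matched background. The search covered the strand of the model, and the 2 hexamers can overlap.

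Runs of A followed some of the ends. At least 12 A in the next 20 bases were present for 51 of 346 members in replicate 1 (14.7%, interval 11.4 to 18.9) and 28 of 180 in replicate 2 (15.6%, 11.0 to 21.6). For ends more than 25 bases from an annotated end the counts were 41 of 203 (20.2%) and 16 of 100. Of all 20-base windows in the 419 exons used, 1.57% held as many A. An oligo(dT) primer can anneal to such runs within a transcript as well as to a poly(A) tail. The part of such priming in these models was not tested.

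A few genes held a large part of the member reads. Actb alone took 18.8% of them in replicate 1 and 18.6% in replicate 2, and the 12 genes with most took 30.1% of the member reads on annotated genes over both libraries. Over the gene's reads, members held 5822 of 6565 reads of Actb in replicate 1 (88.7%) and 2802 of 3419 in replicate 2 (82.0%). Fewer cells and less RNA per cell cannot be told apart in such bulk counts.

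Surface, membrane and chromatin genes followed. Cavin1, a coat protein of caveolae, had 463 of 484 reads on members in replicate 1 and 425 of 449 in replicate 2. Cbx3, the gene of heterochromatin protein 1 gamma, had 452 of 536 and 182 of 253. The heparan sulfate proteoglycan Sdc4 had 303 of 377 and 170 of 237, and the zinc importer Slc39a1 240 of 255 and 88 of 98. In all 4 genes most reads lay on members in both libraries. Golt1b, a Golgi transport gene, had 183 of 245 and 125 of 186, and the phosphatase gene Dusp3 153 of 174 and 134 of 160.

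Actg1 and Sparc kept most of their reads on Known models. Actg1, gamma-actin, had 496 of 3763 reads on members in replicate 1 and 175 of 4175 in replicate 2, and 3030 and 3775 on Known models. The matrix protein gene Sparc had 291 of 1626 and 110 of 1580 on members. St13 had 224 of 497 and 114 of 405 reads on members, and 222 and 241 on Known models. Gm49164 and Gm20659, a lincRNA and an antisense gene of the annotation, had 354 and 155 reads and 156 and 127 reads on members. Gm49164 had no other reads, Gm20659 had 157 and 127 in all, and neither had a read on a Known model.

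**Figure D3:**
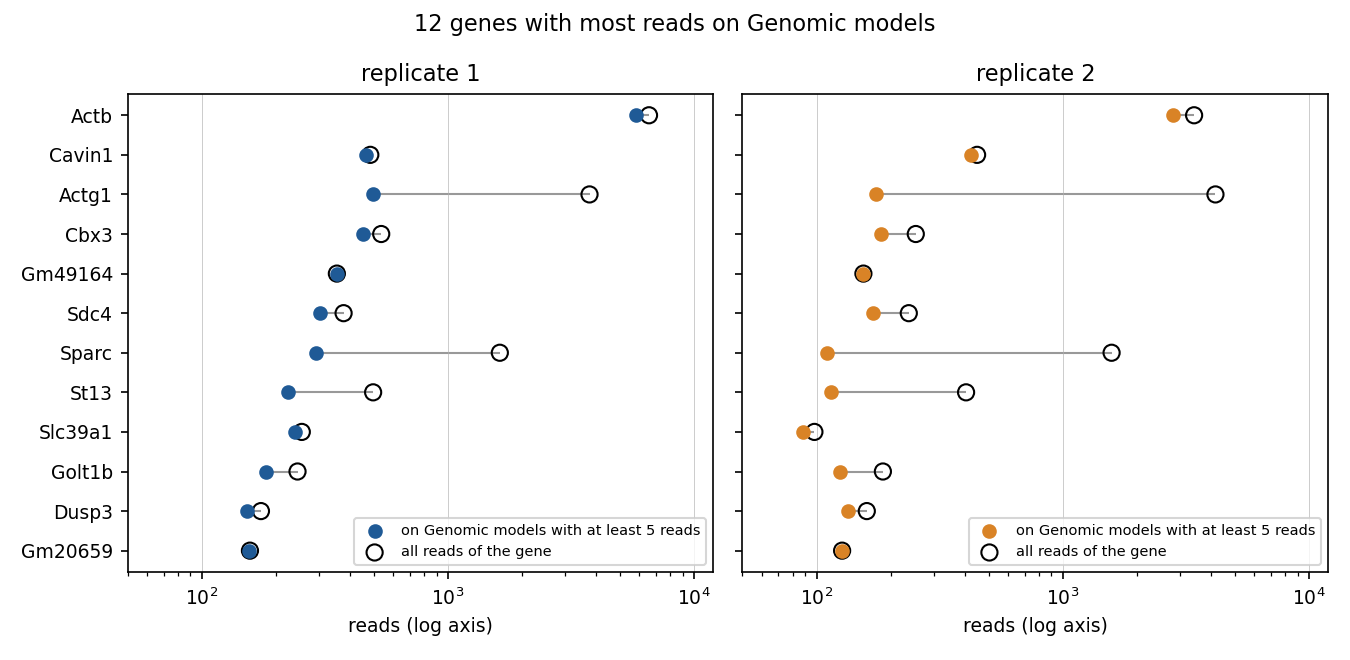
Reads on members (filled circles) and all reads (open circles) of the 12 genes with most member reads, replicate 1 left and replicate 2 right, on a log axis. The circles nearly coincide for Actb, Cavin1, Gm49164, Slc39a1 and Gm20659 and lie far apart for Actg1 and Sparc.

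Members were spread over many genes beyond these. Of 8940 annotated genes with at least 10 reads over both libraries, 1551 had a member (17.3%), and 310 (3.47%) had over 50% of their reads on members. Of the 310, 294 were protein-coding, 51 had at least 100 reads, and 206 passed 50% in each library alone. Those after the genes above included Spry2, with 212 of 214 reads in replicate 1 and 56 of 57 in replicate 2. The insulin-like growth factor binding protein Igfbp5 had 130 of 138 and 123 of 129, and the calcium sensor Ncs1 145 of 146 and 104 of 105, both named here after their values were seen.

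Genes with a member had longer last exons. Their median last exon was 2357 bases (quartiles 1478 and 3588.5), against 1545 (758 and 2707) in genes with at least 10 reads and no member. The order was the same in each of 4 bins of read number, from 3046.5 against 2008 bases in genes with 10 to 29 reads to 1652 against 816 bases in genes with 300 or more. This is a description across genes, which are not replicates. Single-exon genes rarely had members, 6 of 394 (1.52%), against 1545 of 8546 multi-exon genes (18.1%). The 119 and 147 member reads of these 6 genes were all on 2-exon models, so none had a 1-exon member. Since the class depends on how a model fits the annotation, this contrast cannot be read as a property of the genes.

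The multi-exon members were few and their gaps unusual. The most abundant was a 2-exon model in an unannotated locus on chromosome 13 (21813077 to 21820117 in replicate 2, plus strand) with a 5276-base intron, read 161 times in replicate 1 and 186 times in replicate 2. Hmga1b, an intronless copy of a high mobility group gene, had 94 and 132 reads on a model with a 33-base gap inside its annotated exon. Reads of its parent gene and of the copy may be split between them, so its level is uncertain.

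The lincRNA Gm26870 (13 and 9 reads), AC126807.1 (8 and 5), Gm7964 (6 and 5), Gm3448 (7 in replicate 1) and Gm8332 (6 in replicate 1) had fewer reads. AC126807.1 and Gm7964 are processed pseudogenes, so their reads may belong to near-identical copies elsewhere.

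Intron-retaining models with most reads, after Actb, were of mixed kind. Gm20659 on the plus strand of chromosome 11 (101971143 to 101972947) contained a 113-base intron, but its bases also lay entirely in the exons of Dusp3 on the opposite strand. Bgn, the proteoglycan biglycan, had 81 reads in replicate 1 on a model of 1296 bases in which 2 introns lie inside an annotated exon, and 61 reads of the nuclear lamin gene Lmna in replicate 2 were of the same kind. The pseudogene Gm3608 had 74 and 81 reads on a model around an annotated gap of 1 base.

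Other models contained an annotated intron that no single annotated exon holds whole, a condition that Gm20659 and Gm3608 meet too. The numbers and lengths of introns given here count every annotated intron in the model, also those that exons of other transcripts cover. Aqp5, an aquaporin gene, had 59 reads in replicate 1 and 22 in replicate 2 on a model of 3671 and 3672 bases (chromosome 15, from 99591151) containing 6 annotated introns, the longest of 1378 bases. Its gene had 918 and 929 reads in all. H3f3b, which encodes the replacement histone H3.3, had 48 and 37 reads on a model with 3 introns, of at most 359 bases, and an end 1221 and 976 bases beyond the annotated one. Exons held 65.7% of the bases of the H3f3b model in replicate 1, and 32.0% lay outside the gene. Most of its 359-base intron was thus exon in some annotated transcript. Islr (40 reads) and Zyx (27 reads), which encodes the focal adhesion protein zyxin, had such models in replicate 1. H3f3b, Islr and Zyx were named after their values were seen.

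Many intronic models lay in exons of another gene. This held for 22 of 61 in replicate 1 and 16 of 41 in replicate 2, counting those with at least 90% of bases in such exons. Of these, 6 and 6 were on the same strand as the other gene and 16 and 10 on the opposite one. The Gm49450 model with 129 reads in replicate 1 lay entirely in an exon of Tuba1a, an alpha-tubulin gene, on the same strand. Gm28035, with 81 and 40 reads, lay entirely in exons of the volume-regulated channel gene Lrrc8a on the same strand. The 119 and 85 reads assigned to an intron of Irak4, a kinase of innate immune signalling, lay opposite an exon of Twf1, a twinfilin gene.

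The models of this class with no such overlap included the one with most reads. Gm49164, with its 354 and 155 reads, held a 727-base stretch of chromosome 14 (73953890 to 73954616) in replicate 1 and 738 bases in replicate 2, with no base in an annotated exon. Layn, the gene of the hyaluronan receptor layilin, had 47 and 31 reads on models that shared a start but ended at 2460 bases relative to the annotated end in replicate 1 and at -455 bases in replicate 2, negative values lying before it. Cyb5r3, a cytochrome b5 reductase gene, had 47 reads in replicate 1 on a model that was beyond the annotated gene with 99.7% of its bases and so was not in an intron.

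Boundary models covered part of an exon and part of a neighbouring intron, whichever of them came first. Gatad1, a GATA zinc finger gene, had 105 of 108 reads in replicate 1 and 54 of 54 in replicate 2 on such a model. The septin genes Sept9 and Sept10 had 85 and 56 reads in replicate 1. Gpc1, the proteoglycan glypican-1, had 61 reads in replicate 2. Pam, a peptide-amidating enzyme, had 59 and 13 reads, and Hdgf, a growth factor gene, 37 reads in replicate 1 at the A run printed above. Of these 6, Gatad1 and Pam had a boundary member in both libraries.

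Some members had a counterpart on the other strand. A model of the opposite strand overlapped 214 of 1437 1-exon members in replicate 1 (14.9%, interval 13.1 to 16.8) and 155 of 822 in replicate 2 (18.9%, 16.3 to 21.7) over at least 80% of both. Among members with at least 50 reads this was 32 of 78 (41.0%) and 22 of 39 (56.4%). In 89 and 87 of the paired members, 40% to 60% of the reads were on the member's strand. Of Known 1-exon models with at least 5 reads, 40 of 497 (8.05%) and 30 of 443 (6.77%) had such a partner, with 258 and 151 partner reads beside 16729 and 17983 of their own.

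Actb and Cavin1 had the largest pairs. Beside 5822 and 2802 reads of the Actb member stood 3666 and 2129 reads at the same place on the other strand. Cavin1 had 463 and 425 reads on its member and 1310 and 1140 on the opposite strand. Golt1b was nearly even, with 183 against 193 reads in replicate 1 and 125 against 118 in replicate 2, whereas Cbx3 had 452 against 4 in replicate 1. Twf1 and Irak4 had members at identical coordinates (chromosome 15, 94577951 to 94579018), 144 reads on the strand of Twf1 and 119 on that of Irak4 in replicate 1, and 81 and 85 in replicate 2. Both strands entered the member list in that case. No strand step is stated in the labels, so reads of a gene and of an antisense partner cannot be told apart.

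**Figure D4:**
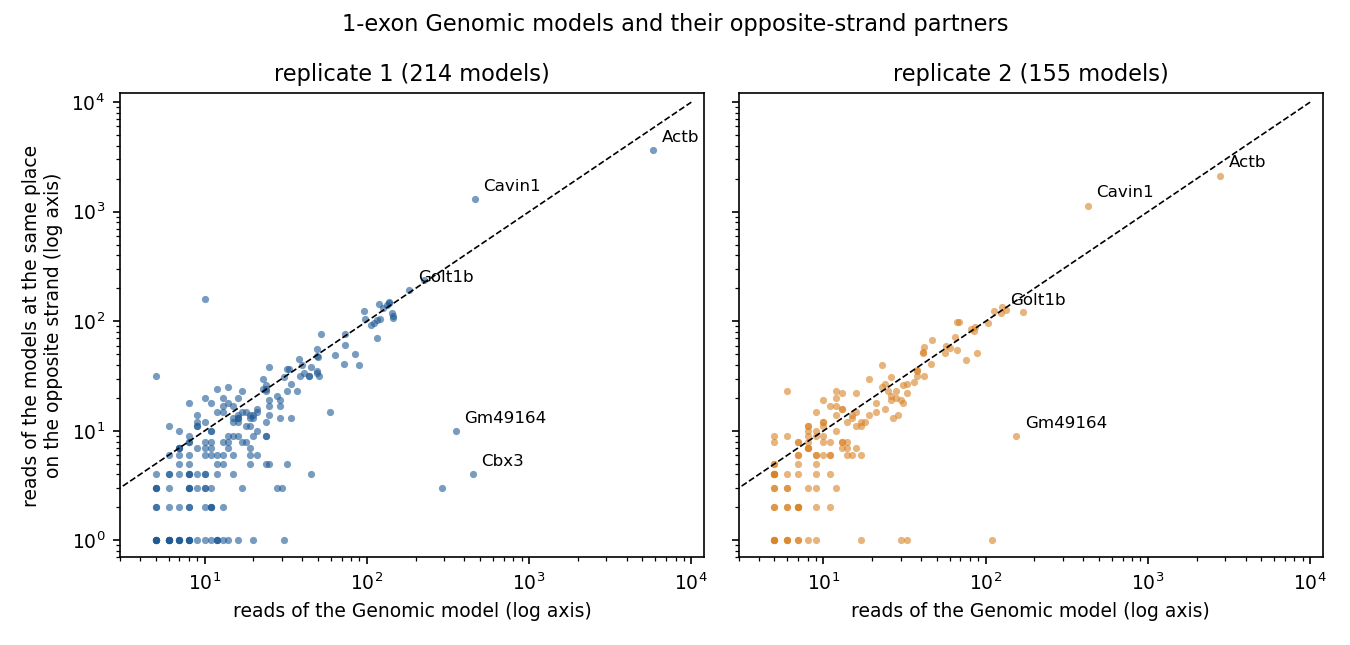
Reads of 1-exon members (horizontal, log axis) and of their opposite-strand partners (vertical, log axis), 214 members in replicate 1 (left) and 155 in replicate 2 (right). The dashed line marks equal counts, with Cavin1 above it and Cbx3 and Gm49164 below, and 89 members in replicate 1 and 87 in replicate 2 have 40% to 60% of the reads on their own strand.

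Members recurred in part. Of replicate 1 members, 548 of 1445 (37.9%) had a Genomic model of any count in replicate 2 with at least 80% reciprocal overlap on the same strand, or the same introns. Of replicate 2 members, 344 of 829 (41.5%) had one in replicate 1. Only Genomic models were searched, so a model classed as ISM in the other library counted as not seen. At gene level, 1388 genes in replicate 1 and 800 in replicate 2 had a member, and 596 had one in both. Identical coordinates are partly set by the annotation. Among pairs whose 3' end was more than 25 bases from an annotated end, 93 of 118 and 60 of 81 agreed within 10 bases.

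The Genomic share of each gene was then compared between the libraries. Genomic against other reads were tested by Fisher's exact test (two-sided) on 4960 genes with at least 20 reads in each library, with Benjamini-Hochberg adjustment. It compares these 2 libraries and covers counting error only. It called 182 genes (3.67%), 144 higher in replicate 1 (2.9%) and 38 higher in replicate 2 (0.766%). All 182 had a member, which a call nearly requires. At an unadjusted p under 0.05 there were 473. Since the whole class was larger in replicate 1, each gene was also set against the odds ratio of the libraries, 1.75. That test called 126 genes (2.54%), 60 higher (1.21%) and 66 lower (1.33%) in replicate 1 than the libraries as a whole, 98 of them called both ways.

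Actg1 had the smallest p among the genes higher in replicate 1, though not the largest difference. Genomic models took 496 of 3763 reads in replicate 1 (13.2%) and 175 of 4175 in replicate 2 (4.19%), an odds ratio of 1.79 ± 0.13 on the log2 scale (SE; adjusted p 2.72e-44 by Fisher's exact test). The difference was 8.99 percentage points, against 79.2 for Tmem263, 72.3 for Gnb1 and 57.5 for Rab31. Actg1 had no 1-exon ISM read in either library.

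Other named genes traded places with ISM models. Rab31, a GTPase of endosomal traffic, had 112 Genomic reads in replicate 1 and 1 in replicate 2, and 0 and 73 reads on 1-exon ISM models. Tmem263 had 133 and 0 Genomic reads and 3 and 49 on 1-exon ISM models. Gnb1, a G protein beta subunit, had 124 and 3 Genomic and 4 and 54 1-exon ISM reads. Bgn had 81 and 0 Genomic and 0 and 55 1-exon ISM reads. In each of these 4 the library poor in Genomic reads was the one rich in 1-exon ISM reads.

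The same exchange ran the other way in genes higher in replicate 2. Myf5, a determination factor of the muscle lineage, had 0 and 24 Genomic reads and 138 and 0 1-exon ISM reads. Gpc1 had 0 and 61 Genomic and 117 and 0 1-exon ISM reads, and Cdv3 0 and 28 Genomic and 32 and 0 1-exon ISM reads. The histone methyltransferase gene Nsd3 had 1 and 24 Genomic and 51 and 0 1-exon ISM reads. The translation factor gene Eif4h had 0 and 42 Genomic and 77 and 0 1-exon ISM reads. Adjusted p of these 9 genes ranged up to 3.71e-11 by Fisher's exact test.

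Over all 182 called genes, the 1-exon ISM share differed in the opposite direction in 131 (72.0%), in 95 of 144 higher in replicate 1 and 36 of 38 higher in replicate 2. Among the 2827 genes with a Genomic read and no call it did so in 697 (24.7%). The 1-exon ISM share differed at all in 138 of the called genes and 988 of the others, and of these it was opposite in 94.9% and 70.5%. Both shares are parts of the same gene total, so a call for the Genomic share favours an opposite difference in other classes. The uncalled genes were not matched to the called ones in the size of the Genomic difference, so these values are a description. An alternative chosen after seeing the data took 1-exon Genomic and 1-exon ISM reads together. It called 99 genes (2.0%), 96 higher in replicate 1 (1.94%) and 3 higher in replicate 2 (0.0605%). Of the 182, 55 were among them, 53 in the same direction. Actg1 was one (adjusted p 2.72e-44 by Fisher's exact test), while Tmem263 (0.334), Gnb1 (1.0), Gpc1 (0.546), Myf5 (0.0505), Cdv3 (1.0), Nsd3 (0.998) and Bgn (0.0661) were not called. Rab31 kept its call at 0.0369, and Eif4h turned to a higher share in replicate 1 at 0.0277. As shares of the reads on annotated genes, the 2 kinds of 1-exon model together made up 7.07% in replicate 1 and 4.12% in replicate 2.

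**Figure D5:**
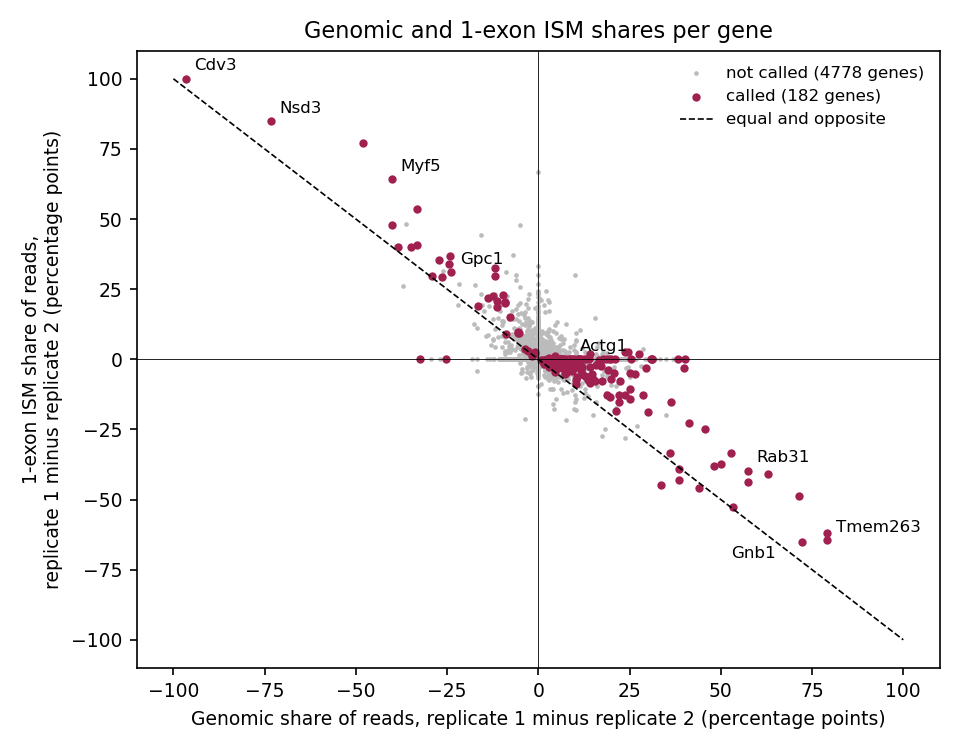
Difference between replicate 1 and replicate 2 in the Genomic share (horizontal) and in the 1-exon ISM share (vertical) of each of 4960 tested genes, in percentage points. Called genes (182, red) with large differences lie near the dashed line of equal and opposite change, such as Cdv3, Nsd3 and Myf5 at the upper left and Gnb1 and Tmem263 at the lower right, while Actg1 lies on the horizontal axis.

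Gene lists chosen with earlier results known showed where members fell by function. Of 20 cytoskeleton genes 14 had a member, with 23.0% of the list's reads in replicate 1 and 11.9% in replicate 2. Over all annotated genes with reads members held 3.98% and 2.05% of reads. Without Actb, an alternative chosen after seeing the data, the list's shares were 4.29% and 1.67%. The all-gene shares still hold the reads of Actb, so they are not a matched background for these 2 values. Tubb5, a beta-tubulin gene, had 184 of 1709 and 91 of 1906 reads on members, and Tuba1b, an alpha-tubulin gene, 133 of 2397 and 66 of 2535. Of 19 tested, 6 were higher in replicate 1 and 0 in replicate 2, with a median difference of 1.47 points, against 0.0 over all genes tested. Among all those genes the called shares were 2.9% for a higher value in replicate 1 and 0.766% for a lower one. The same all-gene shares apply to the lists that follow, as does the 17.3% of genes with at least 10 reads that had a member.

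Of 18 extracellular matrix genes, 11 had a member, with 6.11% and 2.79% of the list's reads. Of 17 tested, 2 were higher in replicate 1 and 2 in replicate 2 (median 1.35 points), against 2.9% and 0.766% of all genes tested. Sparc was higher in replicate 1 (17.96% against 7.03%, adjusted p 1.56e-18 by Fisher's exact test). Timp2, a metalloproteinase inhibitor, had 94 of 170 and 51 of 98 reads on members with an adjusted p of 1.0. P4hb, a prolyl hydroxylase subunit, had 52 of 1163 and 27 of 1217.

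Of 29 splicing factors and genes known for detained introns, 11 had a member, with 3.35% and 1.05% of the list's reads. Over all genes the shares were 3.98% and 2.05%, but these include Actb, so the list cannot be ranked against the other genes by them. Of 25 tested, 4 were higher in replicate 1 and 0 in replicate 2 (median 1.91 points), against 2.9% and 0.766% of all genes tested. Hnrnpk had 34 of 833 and 10 of 808 reads on members, and the RNA helicase genes Ddx5 and Ddx17 had 28 of 504 and 8 of 521, and 19 of 22 and 5 of 7. Hnrnpa2b1, which encodes an RNA-binding protein, had 23 of 271 and 5 of 256, on models that contained a 486-base intron in both libraries.

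The remaining lists had fewer genes. Of 16 immediate early and feedback genes, 5 had a member, and 0 of 8 tested were called. Spry2 had most reads on members, then Dusp1 (5 and 6 reads), Egr1 (6 and 0) and Dusp4 (0 and 5). Members held 20.5% and 6.62% of the list's reads. Spry2 gave 212 and 56 of the list's 228 and 67 member reads. Of 13 glycolysis genes, 3 had a member, Tpi1 (40 and 16 reads), Pgam1 (20 and 0) and Hk2 (8 and 0). Members held 0.530% and 0.115% of that list's reads, and 2 of 12 genes tested were higher in replicate 1. Over all genes tested 3.67% were called, 2.9% as higher in replicate 1. Of 10 long non-coding RNAs, only H19 had a member, with 8 and 0 reads. Of 14 contractile genes, 0 had a member, although all had reads.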

How the data were processed

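The authors deposited, per library, a table of read counts per transcript model and a model annotation. Per the file headers, these are raw counts with no normalisation on mm10 and GENCODE M21, and TALON is the source named for unannotated models. For the aligner, the filters and strand handling, the sources used here give nothing. Depth was 791850 and 735077 reads. Members, lists and tests were chosen with earlier results of these data known. The labels number the samples 1 and 2 of 1 group, so the tests compare 2 libraries.

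Models were placed by exons, introns and coding sequence of their assigned gene. Genes with at least 20 reads in each library entered Fisher's exact test with Benjamini-Hochberg adjustment at 0.05, which was tested on simulated data. Shares have Wilson 95% intervals, which cover counting error only. Named were the 12 genes with most member reads, the 10 highest with over 50% of their reads there, 8 multi-exon models, 6 per intron class, 5 per direction of the test and 4 per list. Genes outside this rule are said to be chosen afterwards or illustrate model ends, strand pairs or short models, and were likewise chosen after their values were seen. The result of 1 multi-exon model and 1 sequence window are not reported here. No genome was used here. Sequences after model ends were read from annotated transcripts, in place of the planned genome windows. Alternatives included TMM (edgeR 4.0.16) and DESeq2 1.42.0 scaling. Tools were Python 3.11.15, pandas 2.3.3, numpy 2.4.6, scipy 1.17.1, matplotlib 3.10.9 and R 4.3.3.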

Additional observations from a re-analysis of the deposited data

How the results depend on the processing

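Each value here is over both libraries. The number of members was 2274, and 4261 or 942 with minimums of 3 or 10 reads, where 1-exon members made up 99.1% at 3 reads. The 3' UTR or last exon held 76.5% of members and 59.0% of their reads, 83.2% and 64.1% with thresholds of 50%, 72.5% and 57.0% with thresholds of 1% and 99%, and of reads 78.2% with strict introns and 72.7% without Actb. Intron-retaining members (4.75% of members, 22.4% of reads) fell to 2.99% and 2.61% with strict introns and to 4.51% of reads without Actb. Intronic members (4.49% and 4.36%) were 6.95% and 7.51% with thresholds of 50%, 4.04% of reads with 1% and 99%, and 5.36% of reads without Actb. Genes with most reads on members numbered 310, 96 at 50 reads or more, 511 with all Genomic models, and 173 to 332 in either library alone. Members seen in the other library (39.2%) were 58.6% at 50% overlap, 30.5% at 95% and 27.3% with at least 5 reads there. Opposite-strand partners (16.3%) were 22.4% at 50% overlap. Runs of A (15.02%) were 16.35% with 7 of 10 and 11.2% with 15 of 20 bases. The test called 182 genes, 279 (232 higher in replicate 1, 47 in replicate 2) with members alone as Genomic, 99 (96 and 3) with 1-exon ISM models added, and 126 (60 and 66) against the library odds ratio. Of 115 alternatives, 75 left the value within the spread between the libraries or within 1.5 times the count. The spread is the SD of the 2 library values, so shares from 1 library alone fall within it largely by construction. The cause of the moves was not tested. The library odds ratio, both models together, the short members and the Actb settings were chosen after seeing the data. No paired analysis was possible because both libraries belong to 1 group. Depth limits the test, since a gene with 20 reads can be called only at a large difference.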
